A study of Glycine max with 32 samples.

Results

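The change of the leaf transcriptome with plant stage was followed in the transgenic soybean line VPZ-34A grown at elevated CO2 (e[CO2], 600 µmol mol−1), as the difference between leaves taken at the reproductive stage R5–R6, 86 days after sowing, and leaves taken at the vegetative stage V4–V5, 31 days after sowing. The 8 libraries concerned were chosen by their labels out of 32 in the whole field experiment. They comprise every library of this line from the 4 enriched rings 3, 5, 6 and 8, with 1 library per ring at each stage, so that 4 libraries were compared with 4. The labels write the later stage as R6, whereas the methods of the study write R5–R6, which is used here.

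VPZ-34A is a line of Glycine max cultivar Maverick from a single transformation event, in which the Arabidopsis genes AtVDE, AtPsbS and AtZEP are overexpressed, and both stages carried these transgenes and received the same CO2 level. Libraries of WT, the non-transgenic cultivar, from the same 4 enriched rings and libraries of VPZ-34A from 4 rings at 410 µmol mol−1 (a[CO2]) served for comparison, with 8 libraries each. A sample was a pool of discs from several plants of a plot, cut from the youngest fully expanded leaf at both stages and at the same hours of the morning. The comparison was therefore between young leaves of a vegetative and of a seed-filling plant, and leaves of different age on 1 plant were not compared. Plant age, date and weather differed together between the stages and cannot be told apart.

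A soybean leaf at V4–V5 supplies sugar to a shoot that is still making leaves, whereas at R5–R6 it supplies sugar and nitrogen to filling seeds, and chloroplast protein is later dismantled to release that nitrogen. The proteins of the transgenes act in photoprotection. PsbS promotes fast thermal dissipation of excess light in the antenna, violaxanthin de-epoxidase (VDE) makes zeaxanthin, which sustains that dissipation, and zeaxanthin epoxidase (ZEP) converts zeaxanthin back when light falls.

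Total estimated counts were 20813995 to 55755989 per library at V4–V5, where only ring 5 exceeded 24004201, and 18956175 to 24556102 at R5–R6. The libraries of the stages differed in composition. The 100 most abundant genes of a library took 21.7% to 25.6% of its counts at V4–V5 but 16.1% to 17.9% at R5–R6, and the TMM scaling factors, which correct for such a difference, were 0.861 to 0.9799 and 1.06 to 1.158. Levels are given below as CPM, the counts of a gene scaled to a common library total with TMM, without correction for gene length, so that they compare libraries and not genes.

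Of 35639 genes tested, 10287 were called at R5–R6 against V4–V5, at an adjusted p under 0.05 and a log2 fold change above 1 in size, which is 28.9% of the genes tested. Among them 3891 genes (10.9%) were higher and 6396 (17.9%) were lower at R5–R6. Decreases were also deeper, with a median log2 fold change of -2.03 among the lower genes and 1.7 among the higher ones. A log2 fold change beyond 4 was found for 1258 lower and 219 higher genes, and one beyond 6 for 487 lower and 45 higher genes. At an adjusted p under 0.05 without a fold threshold, 8522 genes (23.9%) were higher and 9852 (27.6%) lower, 51.6% in all, and beyond 2 on the log2 scale 1481 (4.16%) were higher and 3263 (9.16%) lower. No count was recorded in any of the 4 R5–R6 libraries for 255 of the lower genes, while 23 of the higher genes had none in any V4–V5 library.

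This balance of directions depends on the scaling. With TMM the median log2 fold change of all genes was -0.0099 and 37.8% of the called genes were higher. When libraries were scaled by their totals alone, an alternative added after the data had been seen, the median of all genes shifted to 0.27, and 5846 genes were called higher and 5029 lower, so that 53.8% were higher. RLE size factors gave 3875 higher and 6408 lower. Changes are therefore reported relative to the median gene, and a change smaller than that shift has no fixed direction. Because the tissue was sequenced in bulk, fewer cells of a type and less RNA per cell cannot be told apart.

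**Figure D1:**
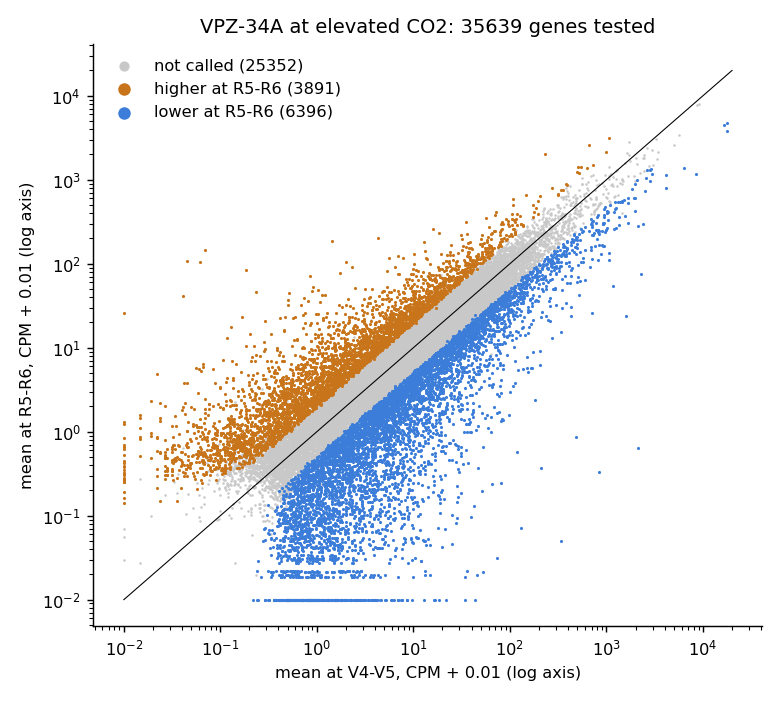
Mean level at V4–V5 (x axis) against R5–R6 (y axis) for the 35639 genes tested in VPZ-34A at elevated CO2, in CPM plus 0.01 on log axes, with the line of equal levels. Orange points are the 3891 genes called higher and blue points the 6396 called lower at R5–R6; the blue row at the bottom holds genes without a count in any R5–R6 library.

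The 4 libraries of one stage lay on one side of the 4 of the other for 92.2% of the called genes, against 47.6% of all genes tested, of which 22% were higher and 25.6% lower. The share of lower genes varied with abundance without a steady order. Of 118 genes with at least 1000 CPM in one stage, 51 were lower (43.2%) and 10 higher (8.47%), and the share lower was 23.6% of 1803 genes between 100 and 1000 CPM, 12.2% of 15404 genes between 10 and 100 CPM, 21.8% of 14099 genes between 1 and 10 CPM and 23.2% of 4215 genes below 1 CPM. The genes called lower held 29.9% to 33.7% of the counts of a V4–V5 library and 10.3% to 12.3% of an R5–R6 library, and those called higher held 2.98% to 3.73% and then 11.2% to 12.8%.

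The deepest changes lay in genes for which no name was at hand. Glyma.17G212200 had 205, 297, 417 and 445 CPM in rings 3, 5, 6 and 8 at V4–V5 and then at most 0.0775 CPM at R5–R6. Glyma.17G208200 ranged from 23.1 to 71.5 CPM at V4–V5 and had 0 counts in all R5–R6 libraries against 4515 at V4–V5, so that it was at least 1280-fold lower, taking 3 counts over the group as the limit of detection. In the other direction, Glyma.06G307900 was below 0.1 CPM in every V4–V5 library and had 99.6, 147, 169 and 174 CPM at R5–R6. Glyma.19G108100 had no count at V4–V5 and 13.6 to 48.7 CPM later, at least 952-fold higher by the same limit. These genes were picked among called genes whose stages did not overlap, with a mean of at least 10 CPM in one stage. Their lack of overlap is therefore no separate result.

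Names were taken from the Arabidopsis homologues that the study lists beside the genes it found affected by line, CO2 or their interaction, and the functions named below are those known in Arabidopsis. The transgenes and the native VDE, PsbS and ZEP genes, which are not in those lists, kept the names of the study. Of 676 genes with a name, these included, 674 were tested, and 135 were higher and 149 lower at R5–R6. That is 42.1% of them, above the 28.9% of all genes. Since the study chose nearly all of the named genes on the same libraries, neither this share nor the counts below are independent evidence about a pathway. The remaining 10003 called genes stay unnamed. The named genes were sorted by function into 16 groups with 310 genes, of which 308 were tested, 62 were higher and 72 lower. That is 43.5% called, against 28.9% of all genes tested. A group share above that of all genes therefore need not set the group apart from the named set.

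**Figure D2:**
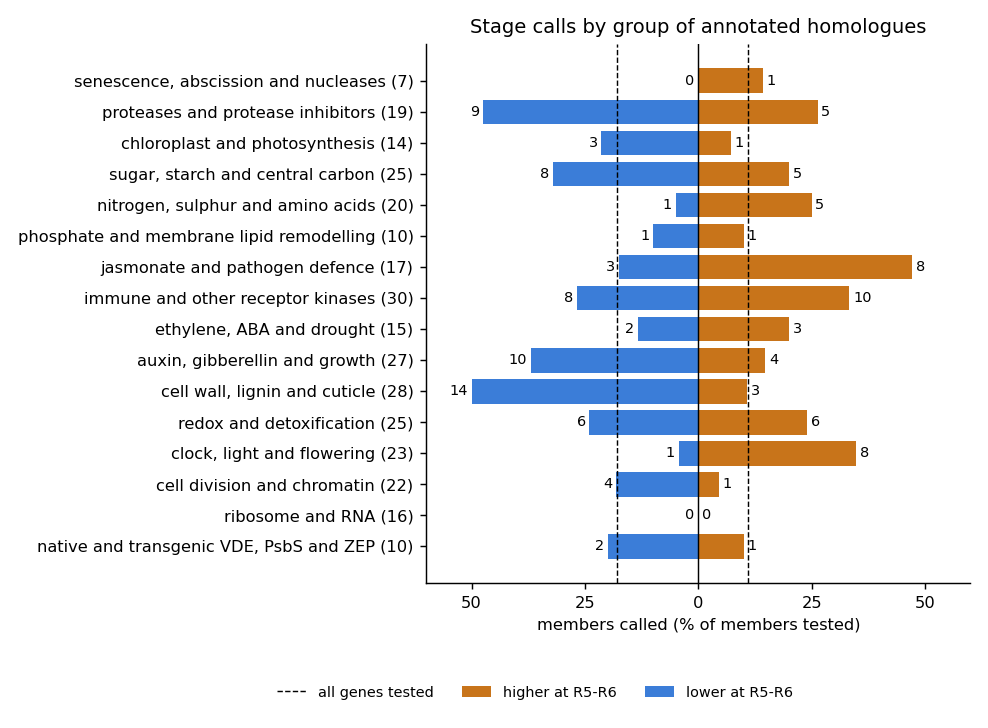
Share of the members tested (number in brackets) that were called higher (orange, to the right) or lower (blue, to the left) at R5–R6 in each of the 16 groups, in percent, with the number called at the end of each bar. Dashed lines mark the shares over all genes tested, 10.9% higher and 17.9% lower; the cell wall group reached 50% lower and the jasmonate and defence group 47.1% higher.

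Among genes of the cell wall, lignin and cuticle lower calls outnumbered higher ones at R5–R6. The shares were 50% lower and 10.7% higher, against 17.9% and 10.9% over all genes tested. Of 28 members tested 14 were lower and 3 higher (14 and 5 with library totals), with a median log2 fold change of -1.63 (-0.0099 for all genes), and the summed level of the group went from 425–598 CPM in the V4–V5 libraries to 186–211 CPM. The FLA2 homologue (Glyma.02G308700), a fasciclin-like arabinogalactan protein of the wall, had 43.5, 84.6, 39.4 and 68.3 CPM at V4–V5 and then 0.802, 1.09, 1.32 and 1.16 CPM at R5–R6. It was thus present in every young-plant sample and close to 1 CPM in all later ones, a log2 fold change of -5.69 ± 0.49 (SE, n = 4 per stage, adjusted p = 1.91e-07 by edgeR). A homologue of invertase and pectin methylesterase inhibitors (Glyma.17G044500), the most abundant gene of the group, had 117, 144, 85 and 193 CPM against 4.25, 3.97, 7.67 and 6.51 CPM and a log2 fold change of -4.58 ± 0.64 (adjusted p = 2.15e-05). Also lower were homologues of expansin A15 (Glyma.07G229000), which loosens walls, of polygalacturonase 2 (Glyma.02G034700), which cuts pectin, of the fatty acid elongation enzyme KCS12 (Glyma.12G075100) and of the lignin pathway enzyme cinnamate 4-hydroxylase (Glyma.20G114200), with log2 fold changes of -1.94, -2.64, -2.9 and -2.7. The later lignin enzyme ferulate 5-hydroxylase (CYP84A1, Glyma.08G140600) went the other way, from 0.183–0.586 CPM to 1.64–13.5 CPM (log2 fold change 4.31 ± 0.63, adjusted p = 3.29e-05). A pectin lyase-like gene (Glyma.19G226500) rose from 0.747 ± 0.286 to 2.45 ± 0.618 CPM (mean ± SD, n = 4).

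Auxin, gibberellin and growth genes showed 10 lower (37%) and 4 higher (14.8%) of 27 tested, with a median log2 fold change of -0.61. Over all genes tested 17.9% were lower and 10.9% higher. The summed level of the group was 459–747 CPM at V4–V5 against 140–191 CPM at R5–R6. Most of the sum at V4–V5 was 1 gibberellin-regulated gene of the GASA type (Glyma.06G044400). It had 498, 472, 266 and 463 CPM at V4–V5 and then 5.43, 27.4, 56.5 and 32.1 CPM at R5–R6. Ring 6 was the lowest at V4–V5 and the highest at R5–R6, and the stages still did not overlap (log2 fold change -4.1 ± 0.89, adjusted p = 0.00112). A second GASA-type gene (Glyma.04G179500) was uneven among the young plants, at 48.5, 10.8, 2.88 and 13.2 CPM, and below 0.5 CPM in all later samples (log2 fold change -5.46 ± 0.83, adjusted p = 5.07e-05). IAA29 (Glyma.04G066300), an auxin-induced repressor of auxin responses, had 5.81, 7.36, 9.72 and 13.9 CPM and then 0.472, 0.137, 0.116 and 0.0352 CPM. This order of the rings was reversed between the stages, and all later samples lay far below all earlier ones (log2 fold change -5.63 ± 0.73, adjusted p = 1.14e-05). The precursor of the growth peptide phytosulfokine, PSK3 (Glyma.13G319200), was lower by a log2 fold change of -4.17 ± 0.43, from 11.5 ± 2.59 to 0.675 ± 0.454 CPM. The GRF1 homologue (Glyma.14G089093), a growth-regulating factor of young leaves, and IAA27 (Glyma.15G017500) had log2 fold changes of -1.64 and -2.19. The CYP78A5 homologue (KLU, Glyma.05G147100), which prolongs organ growth, was higher, from at most 0.726 CPM to 2.53–6.14 CPM (log2 fold change 3.86 ± 0.49, adjusted p = 9.33e-06). An auxin efflux carrier gene (Glyma.11G087300) was also higher, at 0.0966 ± 0.116 and 1.1 ± 0.538 CPM, a call that was lost without ring 6 (adjusted p = 0.0595).

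Of 22 genes of cell division and chromatin, 4 were lower, 1 was higher and 17 were not called, a share of lower genes near the 17.9% of all genes. The median was -0.27, and it turned to 0.016 with library totals. The 4 lower genes were homologues of microtubule, kinesin and cell cycle proteins. MAP65-8 (Glyma.11G249900), which bundles microtubules, had 1.21 to 1.56 CPM at V4–V5 and then at most 0.141 CPM at R5–R6 (log2 fold change -4.32 ± 0.58, adjusted p = 1.55e-05). The kinesin KP1 (Glyma.02G302800) went from 2.73–4.07 CPM to at most 0.492 CPM, and the cyclin-dependent kinase inhibitor ICK5 (Glyma.17G175700) and a TPX2-type spindle gene (Glyma.10G163400) had log2 fold changes of -2.57 and -2.26. SMC5 (Glyma.20G198300), a DNA repair ATPase, was higher in all 4 rings, at 5.66, 7.38, 6.49 and 8.99 CPM and then 18.4, 14.9, 16.5 and 16.3 CPM. The chromatin remodeller CHR5 (Glyma.14G033600), the most abundant member, had 51.6 ± 9.86 and 52.3 ± 2.39 CPM. None of 16 genes of the ribosome and RNA group was called by edgeR (median 0.18), and RNA polymerase II large subunit (Glyma.11G081200) had 84.4 ± 21.3 CPM at V4–V5 and then 80 ± 7.91 CPM at R5–R6. With library totals 2 of these 16 were called higher.

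**Figure D3:**
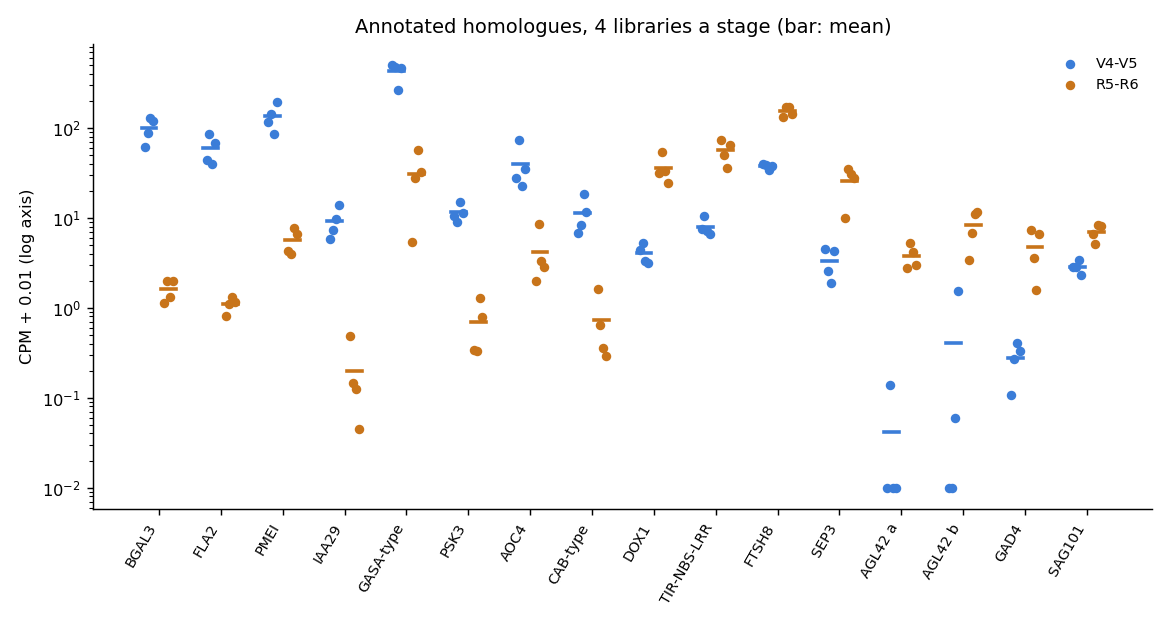
Level of 16 annotated homologues in each library, in CPM plus 0.01 on a log axis, at V4–V5 (blue) and R5–R6 (orange), with rings 3, 5, 6 and 8 from left to right within a stage and a bar at the mean. FLA2 lies at 39.4 to 84.6 CPM at V4–V5 and at 0.802 to 1.32 CPM at R5–R6; PMEI is the pectin methylesterase inhibitor gene, GASA-type Glyma.06G044400, CAB-type Glyma.19G261400, AGL42 a Glyma.10G240500 and AGL42 b Glyma.20G154200.

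Of 14 chloroplast and photosynthesis genes tested 3 were lower (21.4%) and 1 was higher (7.14%), with a median of -0.45. These shares lie near the 17.9% lower and 10.9% higher of all genes tested. The most abundant members were 2 homologues of early light-induced proteins (ELIP), relatives of the chlorophyll a/b-binding antenna that appear under strong light. The first (Glyma.20G150600) had 4240, 1940, 3980 and 2910 CPM at V4–V5 and then 2590, 3060, 3650 and 3080 CPM at R5–R6, and the second (Glyma.10G243800) 2170, 991, 1650 and 1430 CPM and then 1420, 1750, 1730 and 1410 CPM. Both ranges overlapped, and the log2 fold changes were -0.025 ± 0.22 and 0.06 ± 0.24. A minor chlorophyll a/b-binding family gene (Glyma.19G261400) was lower, at 6.82, 8.2, 18.5 and 11.6 CPM and then 1.6, 0.639, 0.349 and 0.281 CPM (log2 fold change -4.05 ± 0.52, adjusted p = 9.85e-06). DXS (CLA1, Glyma.13G213500), which opens the plastid pathway to carotenoid and chlorophyll side chains, was lower in all rings, from 17.8–26.1 to 2.43–6.39 CPM (log2 fold change -2.63 ± 0.46, adjusted p = 0.000196). SIB1 (Glyma.15G232200), a plastid sigma factor binding protein, was higher, from 0.171 ± 0.0808 to 1.45 ± 0.471 CPM. A gene for FTSH8 (Glyma.15G158900), a thylakoid protease that removes damaged photosystem II protein, had 39.8, 38.3, 34.4 and 38.1 CPM at V4–V5 and then 132, 169, 169 and 142 CPM at R5–R6, with a tight spread in both stages and a log2 fold change of 2.02 ± 0.2 (adjusted p = 7.1e-07).

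The transgenes were expressed at both stages, and AtVDE was lower at the later one. AtVDE had 390, 365, 336 and 535 CPM at V4–V5 and then 110, 90.6, 101 and 72.2 CPM at R5–R6, a level 4.35-fold lower on average (log2 fold change -2.11 ± 0.27, adjusted p = 1.3e-05). AtPsbS had 3190, 2600, 3100 and 3050 CPM and then 2600, 2300, 2030 and 2030 CPM, and AtZEP 1440, 1380, 1310 and 1690 CPM and then 1030, 970, 1160 and 904 CPM. For AtPsbS and AtZEP the later samples did not exceed the earlier ones in any ring, but neither passed the test, with log2 fold changes of -0.42 ± 0.38 (adjusted p = 0.37) and -0.52 ± 0.22 (adjusted p = 0.0546). In the fit of all 32 libraries the spread of a transgene includes WT libraries, which lack it, and with the 8 libraries of VPZ-34A at e[CO2] alone the adjusted p was 0.139 for AtPsbS and 0.0668 for AtZEP. For AtZEP the adjusted p depended on the fit at the same log2 fold change of -0.52, with 0.0204 by limma-voom, 0.00825 by DESeq2, 0.0267 without the replicate block, 0.0306 with a block of the ring shared by both lines and 0.0213 with the 8 libraries without a block, while with library totals the log2 fold change was -0.23 (adjusted p = 0.35). The change stayed under the fold threshold in each of them.

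Of the native counterparts 1 GmZEP gene was higher and 1 GmPsbS gene lower. GmZEP Glyma.09G000600 rose from 1.6, 3.24, 2.73 and 1.64 CPM to 14.1, 25.1, 29.7 and 25 CPM, a 10.2-fold higher mean (log2 fold change 3.34 ± 0.22, adjusted p = 1.54e-08). The more abundant GmZEP Glyma.17G174500 had 1390, 1120, 984 and 1220 CPM and then 965, 945, 668 and 824 CPM, a separation of the stages that stayed under the fold threshold (log2 fold change -0.47 ± 0.19, adjusted p = 0.0453), and GmZEP Glyma.11G055700 had 13.1 ± 3.83 and 18.6 ± 5.56 CPM (adjusted p = 0.172). Both GmPsbS genes had nearly the same log2 fold change, on either side of the fold threshold. Glyma.06G113200 had 2780, 2080, 2730 and 2860 CPM at V4–V5 and then 1280, 1270, 1320 and 1290 CPM at R5–R6 (log2 fold change -1.01 ± 0.15, adjusted p = 4.51e-05), and Glyma.04G249700 had 3170, 2050, 3380 and 3580 CPM and then 1360, 1450, 1600 and 1570 CPM (-1 ± 0.16, adjusted p = 0.000102). The call of Glyma.06G113200 was lost with library totals (log2 fold change -0.72) and without ring 3, 6 or 8 (-0.97, -0.99 and -0.96), each time through the fold threshold and not the adjusted p. The GmVDE genes Glyma.03G253500 and Glyma.19G251000 had 97.5 ± 8.39 against 97.5 ± 23.1 CPM and 73.4 ± 8.49 against 96.3 ± 26.9 CPM, and neither was called. Over the 10 genes of this set 1 was higher (10%) and 2 were lower (20%), near the 10.9% and 17.9% of all genes tested.

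**Figure D4:**
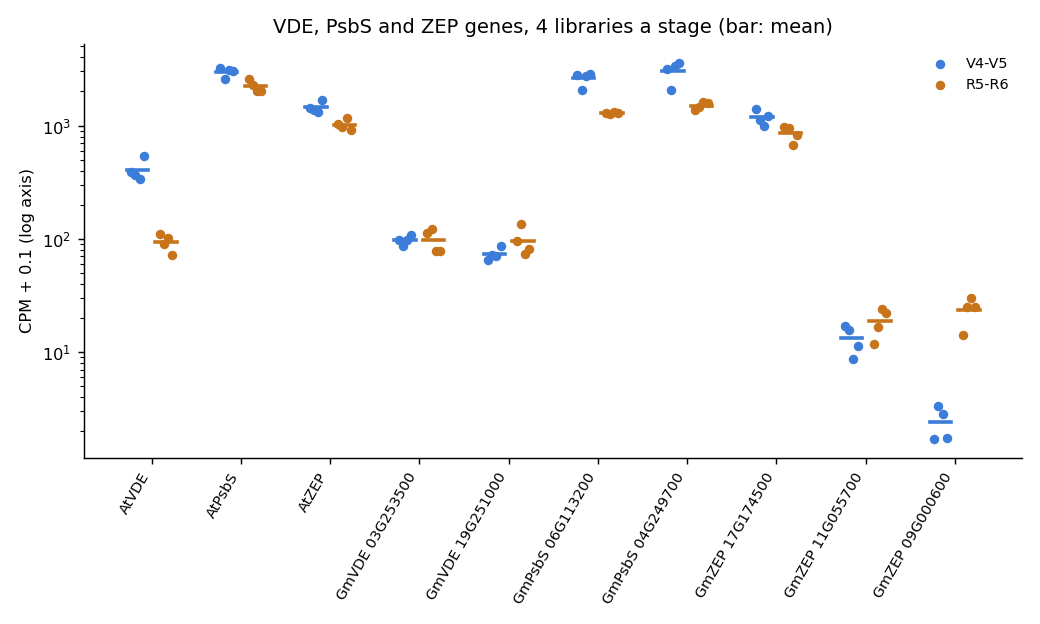
Level of the 3 transgenes and the 7 native VDE, PsbS and ZEP genes in each library of VPZ-34A at elevated CO2, in CPM plus 0.1 on a log axis, at V4–V5 (blue) and R5–R6 (orange), with a bar at the mean of 4 libraries. AtVDE drops from 336–535 to 72.2–110 CPM, both GmPsbS genes drop, and GmZEP Glyma.09G000600 rises from 1.6–3.24 to 14.1–29.7 CPM.

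In sugar, starch and central carbon metabolism 8 of 25 genes were lower (32%) and 5 higher (20%), with a median of -0.2. Over all genes tested 17.9% were lower and 10.9% higher. With library totals the group had 3 lower and 7 higher members, so no direction is given for it. BGAL3 (Glyma.01G170200), a beta-galactosidase that trims wall polysaccharides, had the deepest decrease among the named genes with at least 10 CPM in one stage, from 61, 86.9, 127 and 120 CPM to 1.13, 1.96, 1.32 and 1.97 CPM (log2 fold change -5.93 ± 0.52, adjusted p = 2.23e-07). The plastid glucose 6-phosphate translocator GPT2 (Glyma.13G206700) had 165, 304, 128 and 168 CPM against 27.3, 79.4, 92.1 and 110 CPM. This decrease (log2 fold change -1.4 ± 0.5, adjusted p = 0.0264) was not called without ring 3 or ring 5 (adjusted p = 0.15 and 0.119). Both isocitrate lyase homologues, enzymes of the glyoxylate cycle, were higher at R5–R6 at low levels. Glyma.06G303200 had 0 counts at V4–V5 and 0.426 to 0.563 CPM later, at least 19.6-fold higher, and Glyma.12G100500, with 8 counts at V4–V5 and 35 later, had a log2 fold change of 2.59. A MtN3-type gene (Glyma.06G166900), of a family that holds sugar transporters, had 0.586–1.15 CPM and then 0–0.62 CPM, and this call near the threshold (log2 fold change -2.08, adjusted p = 0.0443) was lost without ring 3, 5 or 8 (adjusted p = 0.141 to 0.159) and with library totals. Of 2 alcohol dehydrogenase 1 homologues Glyma.04G240800 rose, from 1.07 ± 0.523 to 8.59 ± 4.53 CPM, and Glyma.06G122600 fell, from 53.7 to 21.2 CPM on average. The PPC4 homologue (Glyma.01G091000), a phosphoenolpyruvate carboxylase, was higher (0.113 ± 0.0828 and 0.686 ± 0.485 CPM), ENO2 (Glyma.16G204600, enolase) was lower (19.2 ± 8.18 and 8.12 ± 3.02 CPM), and GAPC1 (Glyma.18G009700) had 7.6 ± 1.25 and 9.55 ± 5.89 CPM. Without ring 5 the call of PPC4 was lost (adjusted p = 0.0744), and without ring 8 that of ENO2 (log2 fold change -0.96). The calls of GPT2 and ENO2 were also lost with library totals.

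Among 20 genes of nitrogen, sulphur and amino acids 5 were higher (25%) and 1 was lower (5%), with a median of 0.71. The shares over all genes tested were 10.9% higher and 17.9% lower. Of the 5 higher members, 3 are glutamate decarboxylases, which turn glutamate into GABA. GAD4 homologue Glyma.08G091301 had 0.0968, 0.256, 0.391 and 0.317 CPM at V4–V5 and then 7.27, 3.56, 1.55 and 6.61 CPM at R5–R6 (log2 fold change 3.93 ± 0.67, adjusted p = 0.000144), and Glyma.08G091500 and Glyma.05G136100 had log2 fold changes of 2.86 and 2.32. These are low levels, and the first 2 are near neighbours that can share reads. The GABA transporter GAT1 homologue (Glyma.12G084500) was higher by 1.79, while the amino acid permease AAP3 (Glyma.06G116400) was lower, from 1.16–4.16 to 0.502–0.991 CPM. Methionine gamma-lyase (Glyma.13G001200), the most abundant member, had 38.1 ± 5.34 and 36.6 ± 19.7 CPM.

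Of 10 genes of phosphate and membrane lipid remodelling, the purple acid phosphatase PAP17 (Glyma.05G247900), which releases phosphate, was higher and 1 of the sulfolipid synthase SQD2 homologues (Glyma.03G078300) was lower. That is 10% each way, against 10.9% higher and 17.9% lower over all genes tested. PAP17 had 7.79, 15.8, 26.9 and 33.1 CPM and then 29.4, 82.1, 79.5 and 76.3 CPM, higher in each ring although ring 3 at R5–R6 lay below ring 8 at V4–V5 (log2 fold change 1.76 ± 0.51, adjusted p = 0.00812). SQD2 Glyma.03G078300 varied from 16 to 125 CPM among the V4–V5 rings and from 2.93 to 15.5 CPM later, and its homologue Glyma.01G113000 had 89.7 ± 28.6 and 92.1 ± 36.2 CPM.

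Jasmonate and pathogen defence genes were more often higher, 8 of 17 tested with 3 lower and a median log2 fold change of 1.09. That is 47.1% higher and 17.6% lower, against 10.9% and 17.9% over all genes tested. DOX1 (Glyma.19G011700), an alpha-dioxygenase that makes defence oxylipins, had 4.4, 5.18, 3.32 and 3.12 CPM at V4–V5 and then 31.8, 53.6, 32.8 and 24.2 CPM at R5–R6 (log2 fold change 3.13 ± 0.3, adjusted p = 5.13e-07). JAZ1 (Glyma.13G112000), a repressor of jasmonate responses, was led by ring 5 at both stages, with 3.63, 12.2, 1.46 and 1.48 CPM and then 5, 80.6, 9.99 and 11.2 CPM, so that the stages overlapped although each ring was higher. JAZ1 and PR4 (Glyma.20G225200), a pathogenesis-related protein, were higher by 2.24 and 2.18 on the log2 scale, and CAD1 (Glyma.09G275802), a perforin-domain regulator of immunity, went from 0.312 ± 0.247 to 2.83 ± 1.06 CPM. The enzyme of jasmonate synthesis in the list, allene oxide cyclase 4 (AOC4, Glyma.18G280900), was lower, at 27.7, 73.8, 22.8 and 34.8 CPM and then 1.98, 8.48, 3.33 and 2.81 CPM, with ring 5 the highest at both stages (log2 fold change -3.31 ± 0.52, adjusted p = 7.05e-05). Of 2 homologues of the transporter ABCG40, Glyma.03G168000 was higher and Glyma.03G168200 lower, with log2 fold changes of 2.46 and -1.91.

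Receptor kinases and immune receptors went both ways, 10 higher (33.3%) and 8 lower (26.7%) of 30 tested, with a median of 0.38. Over all genes tested 10.9% were higher and 17.9% lower. With library totals 11 members of the group were higher and 5 lower. A TIR-NBS-LRR resistance gene (Glyma.06G265400) had 7.5, 10.5, 7.03 and 6.61 CPM at V4–V5 and then 74, 50.5, 36.2 and 64.8 CPM at R5–R6 (log2 fold change 2.8 ± 0.26, adjusted p = 3.59e-07), and its near neighbour of the same class (Glyma.06G265420) had a log2 fold change of 3.42. An S-locus lectin kinase gene (Glyma.06G258101) had no count at V4–V5 and 0.891 to 1.65 CPM later, at least 46.3-fold higher. Another such gene (Glyma.04G042400) and the chitin receptor CERK1 (Glyma.15G111300) were higher by 3.55 and 3.23. Lower members were chiefly kinases with leucine-rich repeats. One of them (Glyma.10G261600) went from 17.4, 30.2, 19 and 33.8 CPM to 1.51, 0.639, 1.67 and 2.81 CPM (log2 fold change -3.95 ± 0.38, adjusted p = 6.69e-07), and SRF8 (Glyma.09G007200), NIK1 (Glyma.18G278200) and the SERK1 homologue (Glyma.02G076100) had log2 fold changes of -2.71, -2.67 and -2.04.

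In the ethylene, ABA and drought group 3 of 15 genes were higher (20%) and 2 lower (13.3%), with a median of 0.2. Over all genes tested 10.9% were higher and 17.9% lower. The counts of the group became 5 and 1 with library totals. The 3 higher genes were nearly silent in the young plants. The embryonic protein homologue ECP63 (Glyma.13G149000) and a late embryogenesis abundant gene (Glyma.05G103100), of a class that protects drying tissue, had no count at V4–V5 and reached 0.194–0.949 and 0.0775–0.365 CPM, at least 23.6-fold and 6.67-fold higher, and a NAC1 homologue (Glyma.15G254000) was higher by 3.68. The call of Glyma.05G103100 was lost without ring 5 (adjusted p = 0.0634). ACS6 (Glyma.08G018000), an enzyme of ethylene synthesis, was lower, at 5.32, 14, 6.35 and 13.1 CPM and then 3.02, 3.65, 1.78 and 2.6 CPM (log2 fold change -1.74 ± 0.31, adjusted p = 0.000194). The stress-responsive factor ATAF1 (Glyma.04G249000), the most abundant member, had 74.8 ± 15.4 and 59.6 ± 4.82 CPM, and the NAC factor ANAC062 (Glyma.07G047900) 1.47 ± 0.287 and 0.709 ± 0.58 CPM, a call that was lost without ring 5 or 6 (adjusted p = 0.124 and 0.0512) and with library totals.

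Redox and detoxification genes were evenly divided, 6 higher and 6 lower of 25 (median 0.087). That is 24% each way, against 10.9% higher and 17.9% lower over all genes tested. With library totals 9 members of the group were higher and 6 lower. Glutathione S-transferase GSTU19 homologue Glyma.15G252000 was higher, at most 0.256 CPM at V4–V5 and then 0.614, 1.41, 8.87 and 5.59 CPM at R5–R6, while the GSTU19 homologue Glyma.08G175200 was lower (log2 fold change -1.51). Ascorbate peroxidase 2 (Glyma.U031318), which removes hydrogen peroxide, was higher by 3.56 ± 0.76, from at most 0.242 CPM to 1.09–1.82 CPM. Among the lower genes were haemoglobin 1 (Glyma.11G121700), which scavenges nitric oxide, with 53.9, 40, 50.6 and 40.9 CPM and then 5.19, 1.41, 12 and 17.1 CPM (log2 fold change -2.76 ± 0.46, adjusted p = 0.000107), and a peroxidase (Glyma.13G167100, -3.27 ± 0.44). Metallothionein 2A (Glyma.14G093100), the most abundant member, had 1260 ± 357 and 1260 ± 258 CPM.

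Clock, light and flowering genes were higher in 8 cases (34.8%) and lower in 1 (4.35%) of 23, with a median of 0.32. The shares over all genes tested were 10.9% higher and 17.9% lower. The summed level of the group was 206–302 CPM at V4–V5 against 358–393 CPM at R5–R6. The floral MADS-box homologue SEP3 (Glyma.20G153700) had 4.45, 2.53, 1.86 and 4.23 CPM and then 9.82, 35.1, 30.4 and 28 CPM, so that ring 3 showed the smallest difference (log2 fold change 2.94 ± 0.44, adjusted p = 4.7e-05). Of 2 AGL42 homologues, MADS-box relatives of the flowering promoter SOC1, Glyma.10G240500 had a single V4–V5 library above 0, with 0.128 CPM in ring 5, and 2.74, 5.2, 4.11 and 2.95 CPM at R5–R6 (log2 fold change 6.32 ± 0.66, adjusted p = 1.33e-06). The other (Glyma.20G154200) reached 1.53 CPM in ring 8 at V4–V5 and 3.4 to 11.7 CPM later. The florigen relative FT2c (Glyma.02G069500) rose from 3.1, 2.87, 1.76 and 2.86 to 10.5, 12.1, 6.35 and 6.93 CPM (log2 fold change 1.75 ± 0.4, adjusted p = 0.00155). RVE1 (Glyma.11G211643), PIF4 (Glyma.02G282100) and a TIC homologue (Glyma.10G027000), which act in the clock and in light-controlled growth, were higher by 1.27, 1.9 and 1.99. A second TIC homologue (Glyma.20G144400), the most abundant member, had 93.6 ± 34.4 and 132 ± 7.82 CPM and was not called. CDF2 (Glyma.13G062500), a repressor of flowering, was lower in all rings, from 4.06–7.64 to 0.472–1.08 CPM (log2 fold change -2.86 ± 0.55, adjusted p = 0.0004).

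Transcripts typical of other organs were looked for among the named genes. The only leaf markers matched were the chlorophyll-binding genes above, whose summed level was 2940–6420 CPM at V4–V5 and then 4010–5380 CPM at R5–R6. Nearly all of that sum came from the ELIP homologues, which appear under strong light. The other member, Glyma.19G261400, was lower at R5–R6 (11.3 and 0.718 CPM on average). No Rubisco small chain gene was matched, so leaf identity was hardly covered. Of 6 genes matched as seed markers 1 was called, the late embryogenesis gene above, and their sum was 23.4–65.5 CPM and then 18.6–42.1 CPM. All 6 belong to the broad lipid-transfer and 2S albumin superfamily or to late embryogenesis families. No glycinin, beta-conglycinin or oleosin gene was matched, so seed storage genes were hardly covered. The genes matched as flower markers were 3, both AGL42 homologues and a pollen Ole e 1-type gene (Glyma.17G005900), with sums of 0.476–2.01 and 6.14–15.4 CPM. The rise of the sum came from the AGL42 homologues alone, and the pollen gene was lower at R5–R6, at 0.348–0.726 and 0–0.194 CPM. SEP3, described above as a floral MADS-box homologue, was not matched and is not in these sums. The part of other tissue in these differences was not tested. No gene of the named set matched the nodule markers.

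Proteases and their inhibitors were lower in 9 (47.4%) and higher in 5 (26.3%) of 19 tested, with a median of -0.73. Over all genes tested 17.9% were lower and 10.9% higher. The families within the group differed. Subtilases, serine proteases of the cell wall and the apoplast, accounted for 6 of the 9 lower genes. The most abundant of them (Glyma.16G018900) went from 142 to 14.2 CPM on average (log2 fold change -3.25, adjusted p = 4.28e-07), and SBT5.2 (Glyma.06G022500) had 324 counts at V4–V5 and 1 at R5–R6, a ratio of 275 (95% interval 49 to 10900, exact, counting error only). An aspartyl protease (Glyma.04G091800) had no count at R5–R6, at least 30-fold lower, and its call was lost with DESeq2 (adjusted p = 0.339). Beside FTSH8, 3 serine carboxypeptidase-like genes were higher, among them SCPL50 (Glyma.20G015400), at 3.19, 3.48, 3.71 and 3.65 CPM and then 15.9, 14.5, 18.7 and 14.4 CPM (log2 fold change 2.17 ± 0.23, adjusted p = 1.89e-06). The neighbouring KTI1 trypsin inhibitor homologues went opposite ways, Glyma.08G341800 higher with 1.06, 9.59, 2.69 and 2.54 CPM and then 9.44, 50.8, 14.4 and 2.43 CPM, and Glyma.08G341700 lower by a log2 fold change of -3.45. Both overlapped between the stages, they can share reads, and the call of Glyma.08G341800 was lost without ring 3, 5 or 6 (adjusted p = 0.0506 to 0.0798).

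Genes of senescence, abscission and nucleases gave 1 higher call among 7 tested of 8 listed, with a median of 0.59. That is 14.3%, against 10.9% higher over all genes tested. SAG101 (Glyma.13G069600), a senescence-associated lipase-like protein that also acts in immunity, had 2.81, 2.84, 3.42 and 2.33 CPM at V4–V5 and then 6.56, 5.11, 8.33 and 8.05 CPM at R5–R6 (log2 fold change 1.28 ± 0.29, adjusted p = 0.00172). Ribonuclease RNS2 (Glyma.07G059300), the most abundant member, had 26.9 ± 4.21 and 42.7 ± 16.7 CPM and overlapped between stages (adjusted p = 0.0787). With library totals 3 of the 7 were called higher. Of the 7, 5 had a positive log2 fold change. Ribonuclease RNS1 (Glyma.20G036100) was lower in all rings, at 2.29–14.9 and then 0.708–2.36 CPM. It was not called (log2 fold change -2.23 ± 1.2, adjusted p = 0.127 by edgeR). Endonuclease ENDO2 (Glyma.20G116800) had a log2 fold change of -0.24 and was not called either. SAG12 (Glyma.12G131200), a cysteine protease widely used as a marker of leaf senescence, had 0.242, 0.366, 0.0977 and 0.317 CPM and then 0.661, 1.55, 0.349 and 0.211 CPM. Its levels stayed low at both stages, overlapped and were not called (log2 fold change 1.3 ± 0.59, adjusted p = 0.0772).

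Several genes outside the groups were among the 10 largest increases and decreases of named genes with at least 10 CPM in one stage. A zinc-binding dehydrogenase (Glyma.19G008700) had 1.98, 6, 4.64 and 4.65 CPM and then 21.3, 99.1, 235 and 466 CPM, a wide spread around a log2 fold change of 4.97 ± 0.8 (adjusted p = 8.6e-05). A tetratricopeptide repeat gene (Glyma.13G365300) rose from 0.264–1.01 to 6.42–68.5 CPM, a DUF506 gene (Glyma.05G190100) from 0.659–1.64 to 13.4–29 CPM, a UPF0497 gene (Glyma.07G251300) from 2.64–9.48 to 23.6–59 CPM, a C2-domain phosphoribosyltransferase (Glyma.09G261200) from 1.59–3.29 to 9.8–21.1 CPM, and the cytochrome P450 CYP81D3 (Glyma.09G049100) from 1.27–1.84 to 10.2–32.9 CPM. A GDSL lipase (Glyma.13G231300) had 39.9, 50.2, 106 and 99.1 CPM and then 4.77, 1.73, 1.43 and 3.34 CPM (log2 fold change -4.72 ± 0.41, adjusted p = 2.29e-07). The transcription factor GATA9 (Glyma.16G152700) fell from 7.35–18.6 to 0.274–1.28 CPM and a DUF23 gene (Glyma.09G047900) from 5.57–34.8 to 0.319–1.83 CPM. With a minimum of 300 CPM the rule gave 3 decreases, the GASA-type gene Glyma.06G044400, AtVDE and GmPsbS Glyma.06G113200, and no increase. Of the other genes that the study discusses by name, 4 were not called. The thioredoxin Trx o1 homologue (Glyma.08G087100) had 1.45 ± 0.487 and 1.49 ± 0.261 CPM, the BBM homologues Glyma.09G248200 and Glyma.18G244600 had 2.76 ± 0.903 against 2.91 ± 0.594 and 0.632 ± 0.432 against 0.6 ± 0.108 CPM, and the PYD4 homologue (Glyma.03G040600) had 0.848 ± 0.234 and 1.81 ± 1.56 CPM.

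Whether the stage effect of VPZ-34A at e[CO2] differed from that of WT in the same rings, or from that of the line at a[CO2], was tested gene by gene as the difference of the stage effects. No gene passed in edgeR at an adjusted p under 0.05, which is 0% of 35639 in both comparisons. At an unadjusted p under 0.05 there were 1061 genes (2.98%) against WT, with a lowest adjusted p of 1, and 1683 genes (4.72%) against a[CO2], with a lowest adjusted p of 0.869. limma-voom called none in either comparison, and DESeq2 called 2 in each. Against WT these were Glyma.17G237100 (difference -3.87, adjusted p = 0.0173 by DESeq2) and Glyma.18G072900 (-5.98, adjusted p = 0.00659). Against a[CO2] they were the MtN21-type transporter gene Glyma.04G250600 (-3.38, adjusted p = 0.0237) and Glyma.19G102000 (-1.07, adjusted p = 0.00553). The median SE of such a difference was 0.322 and 0.32 on the log2 scale, which limits the differences that could be resolved. Across genes, log2 fold changes in VPZ-34A at e[CO2] correlated with those of WT at e[CO2] (r = 0.944) and of VPZ-34A at a[CO2] (r = 0.94), where genes are not independent replicates and the first pair shares its rings. Of the 10287 genes called, 8268 (80.4%) were also called in WT at e[CO2], in the same direction, which is 84.8% of the 9747 calls there, and 8645 (84%) in VPZ-34A at a[CO2], 80.8% of the 10705 calls there. No gene was called in opposite directions.

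The stage effects of a few genes are set side by side here. FLA2 had log2 fold changes of -5.69 in VPZ-34A at e[CO2], -5.21 in WT at e[CO2] and -7.16 in VPZ-34A at a[CO2], BGAL3 -5.93, -5.34 and -6.77, GmZEP Glyma.09G000600 3.34, 2.86 and 3.55, and AtVDE -2.11 here and -2.26 at a[CO2]. Among named genes with the lowest unadjusted p for a difference from WT were NDL1 (Glyma.10G161000), a regulator of auxin transport, with a difference of -2.12, and SCAR2 (Glyma.18G209100), of the actin-nucleating complex, with -2.4, both at an adjusted p of 1. NDL1 itself was lower at R5–R6 (4.11 ± 2.17 and 0.23 ± 0.186 CPM), whereas SCAR2 had 1.38 ± 0.355 and 0.893 ± 0.361 CPM and was not called. ENO2 and SQD2 Glyma.03G078300 were lower here (-1.22 and -2.3) with 0.34 and 0.64 in WT, differences of -1.57 and -2.94 that did not pass the test either.

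**Figure D5:**
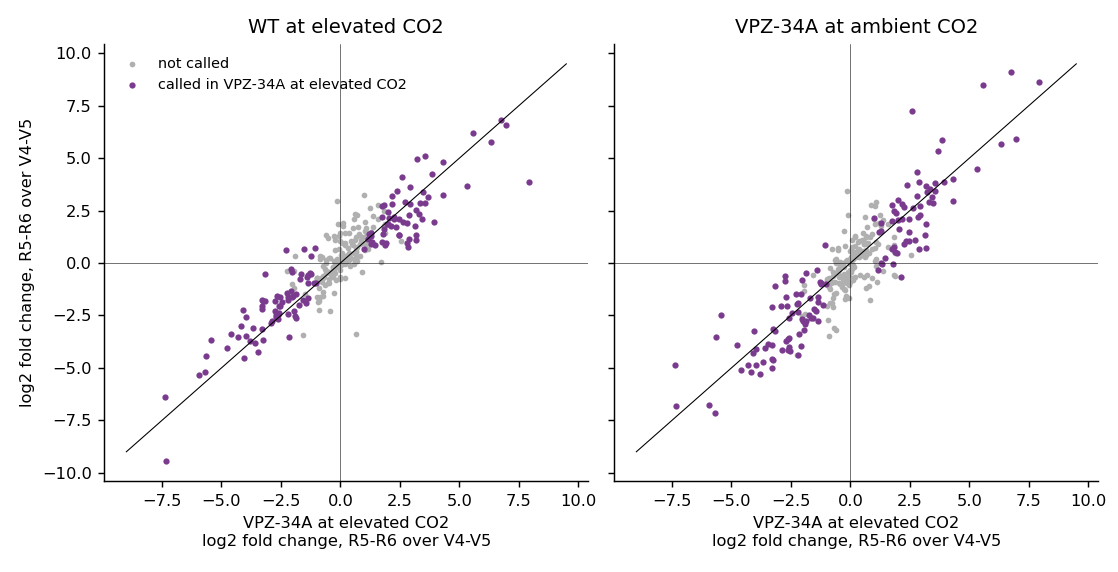
Log2 fold change of R5–R6 over V4–V5 for the soybean genes of the 16 groups in VPZ-34A at elevated CO2 (x axis) against WT at elevated CO2 (left) and VPZ-34A at ambient CO2 (right), with the line of equal effects. Purple points are genes called in VPZ-34A at elevated CO2; edgeR called no gene for a difference between the effects at an adjusted p under 0.05, whereas DESeq2 called 2 genes in each comparison.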

How the data were processed

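Leaf RNA libraries (stranded mRNA, single-end) were aligned by the authors with STAR 2.7.10a to Wm82.a4.v1 plus the 3 transgenes, after Trimmomatic 0.39, and counted with featureCounts of Subread 2.0.4 per the labels; whether counting used the strand is not given in the sources used here. Reads with several alignments were assigned as fractions by the authors, so the deposited values are estimated counts without normalization, 32.6% of the nonzero ones not whole. Paralogous genes can therefore share reads, and overlapping antisense genes can do so if counting did not use the strand. The ComBat-seq step of the study was not repeated.

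Counts were rounded, filtered with filterByExpr and scaled with TMM. All 32 libraries entered one edgeR 4.0.16 quasi-likelihood fit (R 4.3.3) with the 16 sub-plots (ring and line) as a fixed replicate block and a stage effect per line and CO2 level, and p-values were adjusted by Benjamini-Hochberg over 35639 genes. A gene was called at an adjusted p under 0.05 and a log2 fold change above 1 in size, and for differences of effects at the adjusted p alone. The pairing comes from the labels: a ring was sampled at both stages. Deviations from group means hardly followed it (same-ring r -0.033 to 0.0735, n = 4 pairs). No library was a copy of another: the chi-square per gene between libraries of a stage was 13.4 to 43. On simulated counts with 200 changed genes, 90% of changes of 1.5 and 100% of changes of 3 on the log2 scale were recovered. Of the 34893 genes run, 2 unchanged ones were called wrongly. The simulation held no ring differences, gave genes of equal abundance the same spread and changed only genes with a mean above 1 CPM. It also changed far fewer genes than the 28.9% called in the data, so these rates need not hold there.

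Named genes were the 10 increases and 10 decreases largest in log2 fold change among called, non-overlapping, named genes of at least 10 CPM, 5 each way at 300 CPM, 2 each way and the most abundant member per group, the genes the study names, and the 5 lowest p for each difference (those unnamed were left out unless DESeq2 called them). Further group members were named after their values were seen. Functional patterns planned for a reference annotation could not be used, because the reference table held no matching gene IDs or descriptions, so names came from the study's lists and groups were sorted by hand. Members and lists were chosen with earlier results of these data known. A floor of 3 counts and intervals cover counting error only. Replicates are separate rings of one field. Level differences between sub-plots were removed by the block. The p-values measure the spread of the stage difference among sub-plots, pooled over all combinations of line and CO2 level. Alternatives were limma 3.58.1, DESeq2 1.42.0, RLE factors, 2 filters, other blocks, 8 libraries alone, unrounded counts, other fold thresholds, each ring left out, and library totals, the last added after seeing the data. The authors' fold changes and p-values were not used.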

Additional observations from a re-analysis of the deposited data

Results flagged for a closer look

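Within groups of 4 libraries, 10 of 190 combinations of a named gene and a stage held a library far from the other 3, where chance flags about 1 in 20. At V4–V5, the GASA-type gene Glyma.06G044400 was low in ring 6 (266 CPM, others 463 to 498), GmPsbS Glyma.06G113200 was low in ring 5 (2080 CPM, others 2730 to 2860), CYP84A1 (Glyma.08G140600) was high in ring 6 (0.586 CPM, others 0.183 to 0.212), and the AGL42 homologues were high in ring 5 (Glyma.10G240500, 0.128 CPM, others 0) and in ring 8 (Glyma.20G154200, 1.53 CPM, others 0 to 0.0488). At R5–R6, PAP17 (Glyma.05G247900) was low in ring 3 (29.4 CPM, others 76.3 to 82.1), AAP3 (Glyma.06G116400) was high in ring 3 (0.991 CPM, others 0.502 to 0.527), and 3 genes were high in ring 8, the DUF23 gene Glyma.09G047900 (1.83 CPM, others 0.319 to 0.542), MAP65-8 (Glyma.11G249900, 0.141 CPM, others 0.0387 to 0.0472) and SBT5.2 (Glyma.06G022500, 0.0352 CPM, which is 1 count, others 0).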

How the results depend on the processing

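The counts of genes higher and lower at R5–R6 (3891 and 6396) stayed within 1.5 times under limma-voom, DESeq2, RLE factors, no filter, the other blocks, the 8 libraries alone and unrounded counts. They became 2114 and 3149 with at least 10 counts in every library, which tests 26838 genes and drops those absent at 1 stage, 8522 and 9852 with the adjusted p alone, 1481 and 3263 beyond 2 on the log2 scale, and 5846 higher with library totals. Leaving out each ring gave 3490 to 3788 higher and 5953 to 6291 lower. Without the replicate block 10286 genes were called, 9998 of them also called with it, so the pairing changed little. Without it, the calls of GPT2 and of an MtN3 sugar transporter (Glyma.06G166900) were lost (adjusted p = 0.0514 and 0.0967). For both differences of effects, DESeq2 called 2 genes in place of 0.

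Of 73 called named genes, 63 passed the thresholds in every alternative that tested them. Signs turned for 12 genes, all uncalled. Library totals gave 0.26 for ELIP Glyma.20G150600, SQD2 Glyma.01G113000 and GmVDE Glyma.03G253500, 0.24 for RNA polymerase II Glyma.11G081200 and 0.092 for methionine gamma-lyase Glyma.13G001200. Without a replicate block SQD2 gave 0.039 (8 libraries 0.037), metallothionein Glyma.14G093100 -0.0033 (-0.0047) and BBM Glyma.18G244600 -0.048 (-0.041), with a shared ring block SQD2 gave 0.0067, and with limma-voom BBM gave -0.003. Leaving out each ring ranged from -0.23 to 0.2 (ELIP), -0.58 to 0.058 (methionine gamma-lyase), -0.29 to 0.19 (SQD2), -0.21 to 0.5 (BBM Glyma.18G244600), -0.15 to 0.28 (metallothionein), -0.23 to 0.13 (RNA polymerase II), -0.18 to 0.12 (GmVDE), -0.047 to 0.25 (Trx o1 Glyma.08G087100), -0.11 to 0.17 (CHR5 Glyma.14G033600), -0.025 to 0.29 (BBM Glyma.09G248200), -0.15 to 0.52 (GAPC1 Glyma.18G009700) and -0.066 to 1.39 (PYD4 Glyma.03G040600). GmPsbS Glyma.04G249700, just under the fold threshold, passed it under 9 alternatives. The log2 ratio of a group's share of counts (0.25 chloroplast, 0.45 ethylene, 0.14 redox, 0.13 cell division) became -0.74, -0.11, -0.33 and -1.35 with the median CPM of its members. The cause of these changes was not tested. How detection depended on abundance was not tested.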
